A study of Homo sapiens with 6 samples.

Results

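SR splicing factors bind exonic sequences through an RNA recognition motif and recruit the spliceosome through a domain of repeated arginine and serine residues, the RS domain. Several SR mRNAs are also kept in check by their own proteins, through the inclusion of so-called poison exons that send the mRNA to decay. Some family members also have a glycine-rich stretch outside the RS domain. Glycine codons begin with GG, so such a stretch is written in the mRNA as closely spaced G runs. This is the kind of sequence that can fold into an RNA G-quadruplex (rG4), a stack of planar layers of G held together by a central cation. K+ supports this fold best and Li+ least.

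In total 10 mRNAs were followed here, SRSF1, SRSF2, SRSF3, SRSF5, SRSF6, SRSF7, SRSF9, SRSF10, SRSF11 and TRA2B, chosen by gene name among the 15739 RefSeq transcripts in the data. Each gene was present as 1 transcript, and each transcript was found in all 6 libraries. SRSF1 is the founding member of the family, and SRSF2 is a classical marker of nuclear speckles. SRSF3 and SRSF7 also act in mRNA export. SRSF5, SRSF6 and SRSF9 are splicing regulators with paired RNA-binding domains, SRSF10 is an SR protein that represses splicing when dephosphorylated, and SRSF11 is a larger SR-related protein. TRA2B is the human relative of the fly sex determination factor transformer-2, with an RS domain on each side of its RNA recognition motif.

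The libraries came from U2OS, a human osteosarcoma cell line, with 1 library for each condition. Poly(A) RNA without dimethylsulfate (DMS) was reverse transcribed in 150 mM K+ or Na+ by the sample labels, which gave 2 libraries without DMS. RNA was refolded and DMS-treated in vitro in 150 mM K+ or Li+. Unstressed cells and cells starved for 2 h in a balanced salt solution were treated with 8% DMS for 5 min. All 4 libraries with DMS were reverse transcribed in K+ by their labels. DMS methylates unpaired A and C, which stops reverse transcriptase (RT), and it also methylates the N7 of G, which does not stop RT but keeps that G out of an rG4. With 1 library per condition no test between conditions was possible. Intervals are exact 95% intervals and cover counting error only.

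The labels and the file names of the libraries without DMS contradict each other on which of them had K+. The labels were followed, and each library is named by its label. By the file names, the library called Na+-labelled here is the one with K+, and every direction between this pair would exchange. Of the 3647 transcripts that averaged 1 or more stops per nucleotide in both libraries, 37.6% had a region at G that was at least 2-fold stronger in the Na+-labelled library, and 4.61% had one stronger in the K+-labelled library. Listed stops summed to between 12999691 in unstressed cells and 35371061 in the K+-labelled library, of which the 10 mRNAs held between 64365 and 170763. Of 6 mesenchymal and bone markers 5 were listed, with VIM (vimentin) at 45404 to 125127 stops per library, while COL1A2 was not listed. The 6 markers of other cell types summed to between 60 and 384 stops per library.

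The value used for a stop is E, the count at a nucleotide over the mean count of all nucleotides of the same transcript in that library. A strong stop has an E of at least 10. Strong stops at G that differed at least 2-fold between the libraries without DMS were merged into 1 region if they lay within 30 nt of each other. The mRNAs were covered to different depths. In unstressed cells the mean was 6.23 stops per nucleotide in SRSF9, 5.58 in SRSF2, 4.06 in SRSF3, 2.90 in SRSF5, 2.50 in SRSF1, 2.02 in SRSF7, 1.73 in TRA2B, 1.62 in SRSF6, 1.28 in SRSF11 and 0.790 in SRSF10. SRSF10 was the only one of them under 1 stop per nucleotide in any library, so its profile is the least certain.

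Without DMS, the 10 mRNAs held 15 strong stops at G in the Na+-labelled library, where 0.258% of the 2249965 G of all transcripts were strong, and 1 in the K+-labelled library, where 0.0704% were. The 15 fell into 6 regions in 5 mRNAs, SRSF1, SRSF3, SRSF5, SRSF11 and TRA2B, against 37.6% of all transcripts. No region was stronger in the K+-labelled library (4.61% of all transcripts), although 3 were with the deposited ratio in place of E and 7 with an E of at least 5. At that lower threshold strong G numbered 133 in the Na+-labelled and 134 in the K+-labelled library. The single strong G of the K+-labelled library was G1472 in the TRA2B 3′ UTR, with an E of 10.3 there and 6.86 in the Na+-labelled library, which is less than a 2-fold difference. SRSF2, SRSF6, SRSF7, SRSF9 and SRSF10 had no strong stop at G in either library. Thus 5 of the 10 mRNAs had one in the Na+-labelled library, against 43.1% of all transcripts, and 1 had one in the K+-labelled library, against 14.5%.

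The sequences of 5 of the 6 regions are shown because they carry this result. Each is the 30 nt of the mRNA that end at the strongest stop, read 5′ to 3′ from GRCh37 (the hg19 build), with t for U and with runs of at least 2 G in capitals.
TRA2B glycine-rich: atacagaGGaGGaGGtGGaGGaGGaGGaGG
SRSF1 glycine-rich: ccgaGGcGGcGGcGGGGGtGGaGGtGGcGG
SRSF3 5′ UTR: ttGGttGGtgttGGGccGGaGGaaagcGGG
SRSF5 3′ UTR: GGtGGGatttGGaaGGGGGGttGGGttGGG
SRSF1 3′ UTR: atGGtaaacatttaaaGGGGaaaGGGGGGG
The stop lies on the last G of each window. Each coding window shown is mostly a run of GG repeats separated by single nucleotides. The SRSF3 and SRSF5 windows mix GG with longer runs, and the SRSF1 3′ UTR window has most of its G in a pair of long runs at its 3′ end. For comparison, the glycine-rich stretch of SRSF9 had its strongest G stop at the end of a window that is also rich in G runs. Its E was only 3.97 in the Na+-labelled library.
SRSF9 glycine-rich: GGaGGtcGGGGtGGGtGGccccgtGGtGGG

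These windows lie in the following places. The TRA2B window is chr3:185637261-185638897 on the minus strand, where it runs across the junction of exon 7 with the exon before it, and its stop is G1022 at codon 249 of the 288-residue protein. The coding window of SRSF1 is chr17:56083766-56083795 on the minus strand in exon 2 of 4, with its stop at codon 106. The SRSF3 window is chr6:36562173-36562202 on the plus strand in the 5′ UTR of exon 1. The SRSF5 window is chr14:70238285-70238314 on the plus strand, in the 3′ UTR of the last exon. The 3′ UTR window of SRSF1 is chr17:56080985-56081014 on the minus strand, in the last exon.

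The stop in TRA2B was by far the strongest of the 6. G1022 had 44 stops in the K+-labelled library and 2008 in the Na+-labelled library, which is an E of 9.90 and 430. The E was 43.5-fold (32.3 to 60.0) higher in the Na+-labelled library. The neighbouring G1026 went the same way, with 22 and 496 stops, and G1021 had 5 and 70. The A beside it, A1023, had 15 and 58 stops.

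The coding region of SRSF1 was not listed in the K+-labelled library at its strongest G. This site, G526, had 206 stops in the Na+-labelled library (E of 31.9), which is at least 72.6-fold higher against a floor of 3 stops. With its unlisted count taken as 0, the exact lower limit for counting error was 58.5-fold, and any unlisted stops would lower it. G523 beside it had 3 and 138 stops.

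The regions in the UTRs were listed in both of these libraries. G113 of SRSF3 had 19 stops in the K+-labelled library and 557 in the Na+-labelled library, which is a 30.8-fold (19.5 to 51.6) higher E. G1109 of SRSF5 had 4 and 161 stops, a 40.9-fold (15.7 to 152) difference. The SRSF5 region was also the widest, with 4 strong G (1103, 1104, 1108 and 1109) that held between 103 and 161 stops each. G2738 in the SRSF1 3′ UTR had the smallest difference, with 33 and 188 stops, which is 6.02-fold (4.14 to 9.003).

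**Figure D1:**
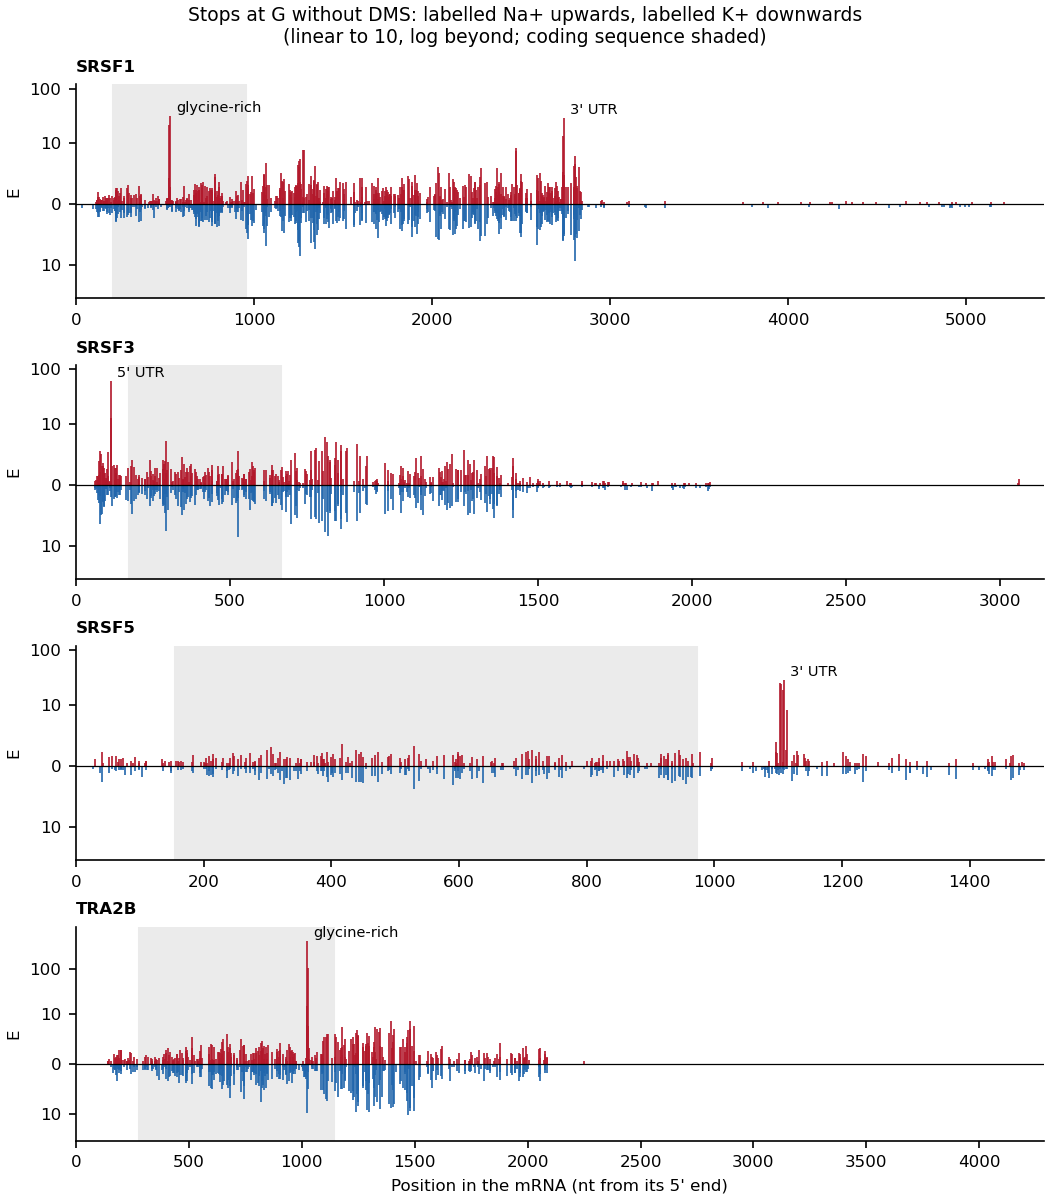
E of every listed G (vertical axis, linear up to 10 and logarithmic beyond) along 4 mRNAs with a region (horizontal axis, nucleotides from the 5′ end), with the Na+-labelled library drawn upwards and the K+-labelled library downwards. The named regions are isolated upward spikes, the tallest at 430 in TRA2B, with no spike of like height below the line.

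The strong stops of the Na+-labelled library were counted by class of sequence. Glycine-rich stretches were defined as windows of 15 residues with at least 6 glycines, and RS stretches as windows of 20 residues with at least 8 residues in RS or SR pairs. Glycine-rich stretches amounted to 420 nt in 6 mRNAs, had 41.7% G and held 7 of the 15 strong stops, which is 40.0 per 1000 G. These 7 were neighbouring G in only 3 regions, so the rate does not count independent stalls. RS stretches amounted to 3015 nt in all 10 mRNAs, had 24.6% G and held none, and with 743 G examined this allows a share of up to 0.495% (exact limit). The rest of the coding sequence, with 1362 G, held none either, which allows up to 0.271%. Both limits count each G as independent. They lie above the 0.258% of all G that were strong in this library, so neither class was detectably below that share. The 5′ UTRs held 2.86 per 1000 G and the 3′ UTRs 1.58 per 1000 G. G content moved with these classes and its part in the result was not tested.

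Not all glycine-rich stretches gave a stop. The largest E at G in the Na+-labelled library was 0.846 in SRSF2, 1.39 in SRSF6 and 3.97 in SRSF9, against 31.9 in SRSF1 and 430 in TRA2B. In SRSF9 the site G446 was nevertheless higher in the Na+-labelled library, with 40 stops against 9 and a 4.65-fold (2.22 to 10.9) difference in E. The stretches of SRSF2 and SRSF6 held 9 and 21 G, against 26 in SRSF9, 32 in TRA2B and 42 in SRSF1. In the RS stretches the largest E at G in either library without DMS was 8.52, at G527 of SRSF3, where the K+-labelled library had 81 stops and the Na+-labelled library 51.

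The sequences were searched for 4 runs of GG with loops of 1 to 9 nt, on the mRNA strand only. Of the 6 windows 5 held such a match, and the exception was the SRSF1 3′ UTR. A stricter pattern, 4 runs of GGG with loops of 1 to 7 nt, was in none of the 6. Over all G of the transcripts past the minimum, 8.80% of 30-nt windows held the GG pattern and 0.209% the GGG pattern. Over the 6688 G of the 10 mRNAs these shares were 6.80% and 0.0897%. Among all 2272 regions stronger in the Na+-labelled library they were 79.6% and 19.0%, and among all 217 regions stronger in the K+-labelled library 7.37% and 3.69%. Within the 10 mRNAs the GG pattern occurred in 59 separate places, of which 42 lay on stretches with listed stops and 5 had a strong stop, so a match alone did not mark a stall. A match describes these letters and is not a measured fold.

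Strong stops at other bases did not follow the same order. The library labelled K+ held 11 at A and the Na+-labelled library 3, mostly in the TRA2B 3′ UTR between positions 1242 and 1503. The 11 had an E of 10.2 to 13.7 in the K+-labelled library and of 5.57 to 11.8 in the other. They thus lay near the threshold of 10. Shares of A and U over all transcripts were not counted. A878 of SRSF3, A1458 of SRSF6 and A1028 of SRSF7 were the others in the K+-labelled library, with an E of 10.4, 10.2 and 13.0. No strong stop was at C, and each library had 2 at U.

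To ask whether the regions reacted to the cation during refolding, the in vitro libraries were compared. They differ in the cation of refolding and DMS treatment. Of the 6 regions 1, in TRA2B, was at least 2-fold stronger in K+, against 28.1% of the 1040 regions listed in both libraries over all transcripts, and 0 were at least 2-fold weaker (2.21%). G1022 had 61 stops in K+ and 19 in Li+, an E of 21.5 and 4.96, which is 4.33-fold (2.55 to 7.68) higher in K+. A1023 next to it went the same way, with 82 stops in K+ and 15 in Li+.

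None of the other 4 regions described here differed beyond counting error. The ratio of K+ to Li+ was 1.48 (0.541 to 4.12) at G2738 of SRSF1, 0.885 (0.478 to 1.60) at G1109 of SRSF5, 0.715 (0.311 to 1.55) at G113 of SRSF3 and 0.667 (0.108 to 3.12) at G526 of SRSF1. With 3 to 31 stops per site and library, several of these intervals still hold a 2-fold difference. The median log2 ratio over the 6 regions was 0.03. It was 0.08 over all 522 G of the 10 mRNAs with at least 20 stops in the pair of libraries, and 0.48 over the regions of all transcripts.

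**Figure D2:**
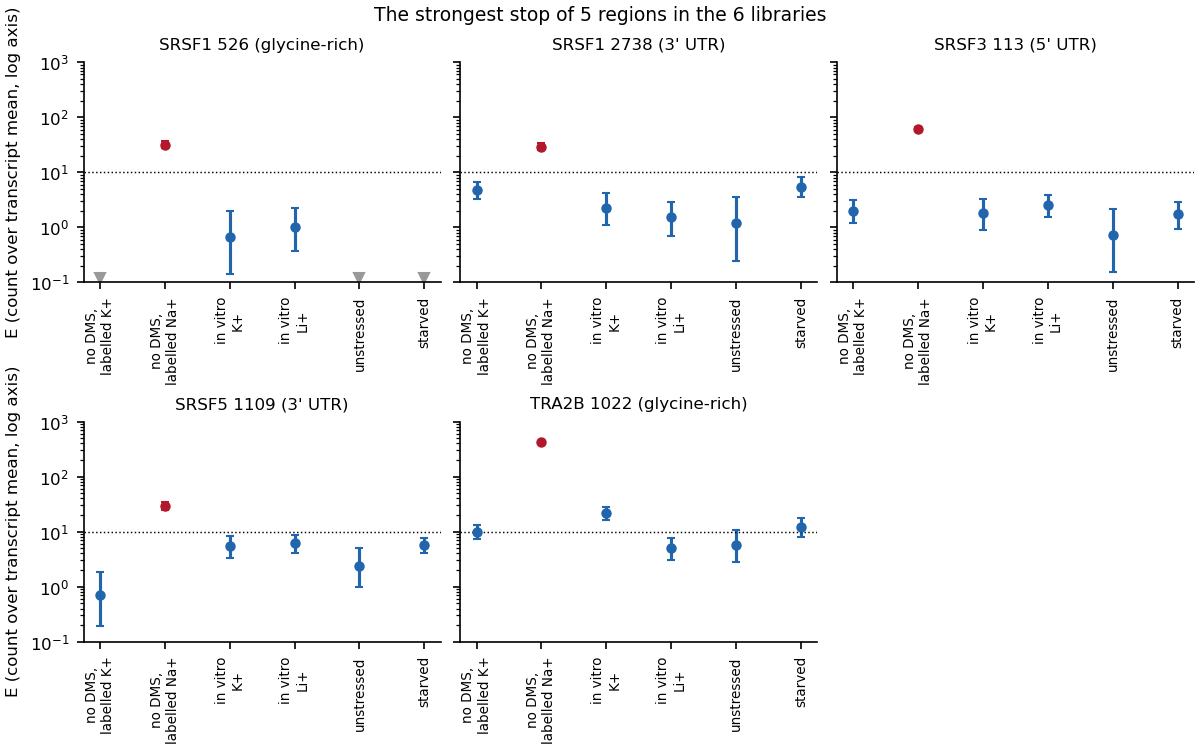
E of the strongest G of 5 regions (vertical log axis) in the 6 libraries (horizontal axis), with exact 95% Poisson intervals. Red marks the Na+-labelled library, blue the other libraries, grey triangles a nucleotide that was not listed, and the dotted line an E of 10. TRA2B is the only panel in which the in vitro points are apart, at 21.5 in K+ and 4.96 in Li+.

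The in vivo libraries ask whether the same G stalled RT more after starvation. Of the 6 regions, 4 were listed in both in vivo libraries, and in all 4 the E of starved cells was 2-fold or more above that of unstressed cells, against 59.9% of the 434 regions listed in both over all transcripts. None was 2-fold lower (0.922%). G526 of SRSF1 was listed in neither, so this coding region has no in vivo value.

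G2738 of SRSF1 went from 3 stops in unstressed cells to 23 after starvation, which is 4.59-fold (1.39 to 23.9) higher in E. G1109 of SRSF5 had 7 and 40 stops, a 2.37-fold (1.05 to 6.27) higher E. At G113 of SRSF3 the counts were 3 and 14, with a ratio of 2.35 (0.655 to 12.7), and at G1022 of TRA2B they were 10 and 26, with a ratio of 2.12 (0.990 to 4.93). The first pair of intervals lies above 1 and the second pair includes 1.

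The fold at G depends on what it is set against, because the share of stops at A and C fell in starved cells. Relative to the mean of U and G nucleotides only, the ratios were 2.72 (0.822 to 14.2) in SRSF1, 1.52 (0.672 to 4.01) in SRSF5, 1.42 (0.395 to 7.68) in SRSF3 and 1.40 (0.655 to 3.26) in TRA2B, and all 4 intervals included 1. Among all 234 G of the 10 mRNAs with at least 20 in vivo stops, 194 had a higher E in starved cells, with a median log2 ratio of 0.54 (quartiles 0.17 and 1.07). Of the 234, 11 were not listed in unstressed cells and passed through the starved library alone. The same share was not taken over all transcripts, so this count is not a trait of the SR mRNAs. The folding score, which places the in vivo E between its in vitro value in Li+ (0) and in K+ (1), was taken only where E in K+ was at least 2-fold that in Li+, which left TRA2B. It was 0.0505 in unstressed and 0.444 in starved cells, and it carries the counting error of all 4 counts.

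The 5 G with the highest ratio of starved to unstressed E reached the minimum of 20 stops through the starved library alone, so their ratios are a description. G788, G1214 and G712 of SRSF3 and G2782 and G2737 of SRSF1 had between 24 and 34 stops in starved cells and were not listed in unstressed cells, so each was at least 4.79-fold higher in E against a floor of 3 stops. With unlisted nucleotides counted as 0, the exact lower limits for counting error were smaller, between 3.60 at G2737 and 4.39 at G788. Relative to the mean of U and G they were between 2.13 and 2.65. An unlisted nucleotide can hold stops under the listing minimum of 3, and any such stop would lower these limits. G2737 belongs to the SRSF1 3′ UTR region. The others had an E of 3.4 to 6.2 without DMS, with no 2-fold difference between those libraries. These 5 G lay in 3′ UTRs, as did 86.8% of the 234 G.

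Among the G with the lowest ratio was G2620 in the SRSF10 3′ UTR, which stood apart in both in vivo libraries. It had 94 stops in unstressed cells and 92 after starvation, while it had 17 and 20 in the K+-labelled and Na+-labelled libraries, 23 in vitro in K+ and 34 in Li+. Its E was 119 in unstressed and 51.5 in starved cells, a ratio of 0.433 (0.321 to 0.584), against 6.59 to 15.6 in the other 4 libraries. Among transcripts averaging 0.5 or more stops per nucleotide in both in vivo libraries, 12 of 1324524 G (0.000906%), in 0.377% of 2655 transcripts, had an E of 50 or more in both. This threshold was chosen after the site's values were seen, so these shares only describe how far out it lies. Its surroundings are shown with the stop in capitals (chr1:24295999-24296028, minus strand, last exon).
SRSF10 3′ UTR: tctaggctttgcctgtaaaGaatacaacga
The other 2 were G1562 of SRSF1, with 17 and 9 stops and a ratio of 0.317 (0.125 to 0.752), and G1459 of SRSF6, with 28 and 15 stops and a ratio of 0.445 (0.221 to 0.862).

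DMS changed which bases stopped RT in all 10 mRNAs. Without DMS, A and C together took between 42.9% and 52.0% of the stops. The lowest of these was TRA2B in the Na+-labelled library, at 42.9% (42.2 to 43.6) against 48.9% in the K+-labelled library. In vitro the share was between 73.9% and 79.8%, and K+ and Li+ differed by at most 1.21 percentage points in any of the mRNAs. In unstressed cells it was between 80.6% and 86.0%, and in starved cells between 71.3% and 77.7%.

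Starved cells had a lower A/C share than unstressed cells in 10 of 10 mRNAs, as in 99.8% of the 1368 transcripts that averaged 1 or more stops per nucleotide in every library. The median difference was -9.45 percentage points, against -9.64 over all these transcripts. SRSF1 had the largest difference, from 83.5% (82.9 to 84.1) to 72.2% (71.6 to 72.8), and SRSF10 the smallest, from 80.6% to 75.3%. No U of SRSF10 was listed in unstressed cells, so its U stops there were estimated. SRSF11 had the highest share in starved cells, at 77.7%, and SRSF9 the lowest, at 71.3%. Over the 10 mRNAs together C moved most among the bases DMS acts on, from 20.2% of stops in unstressed to 13.6% in starved cells, while A went from 63.1% to 60.1%, G from 11.0% to 17.5% and U from 5.69% to 8.80%.

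**Figure D3:**
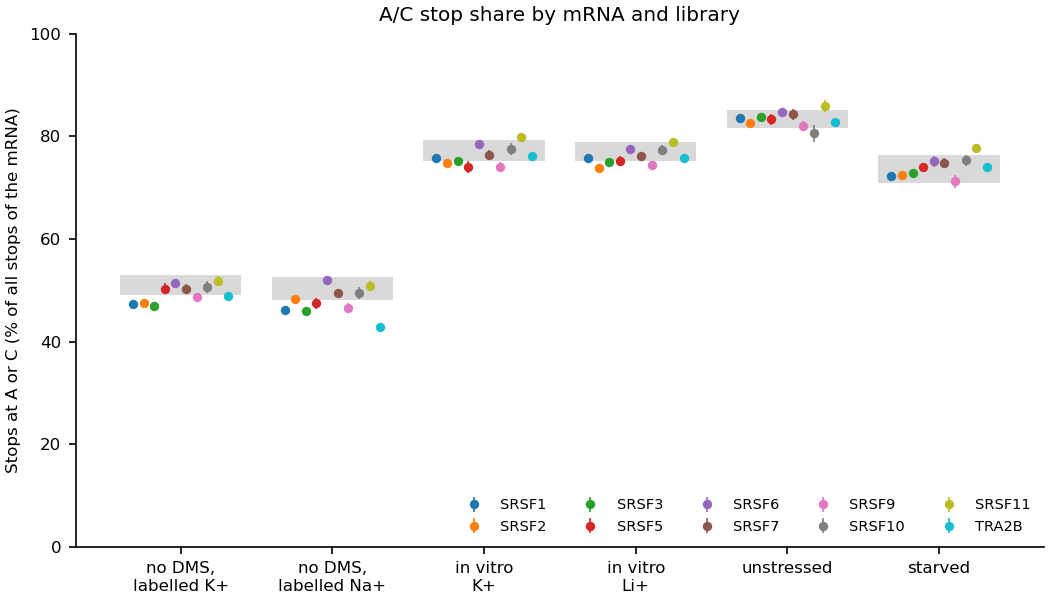
Stops at A or C as percent of all stops of an mRNA (vertical axis) in the 6 libraries (horizontal axis), with exact 95% intervals. Grey boxes span the quartiles of the 1368 transcripts with at least 1 stop per nucleotide in every library. The 10 mRNAs step up from at most 52.0% without DMS to at least 73.9% in vitro, and lie between 71.3% and 77.7% in starved cells.

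The pattern of stops along A and C nucleotides was most alike between the in vitro libraries. Spearman's rho over the listed A and C of each mRNA, 466 to 1544 of them, was between 0.510 in SRSF10 and 0.922 in SRSF3 for K+ against Li+, and between 0.326 in SRSF10 and 0.842 in SRSF7 for unstressed against starved cells. SRSF10 also had the lowest mean count in every library, and nucleotides under 3 stops counted as 0. The part of depth in these values was not tested. The strongest A or C in vivo was an A in every mRNA. It was A2808 in SRSF1 in unstressed cells, with 136 stops and an E of 54.4, and A2805 in starved cells, with 120 stops and an E of 28.7. In SRSF6 A1460 led in both, with 69 and 32 stops, and in SRSF5 A1050 did, with 46 and 42.

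The 3′ UTRs took a larger part of the listed stops in cells than in vitro. Only nucleotides with at least 3 stops are listed, and the part of depth in these shares was not tested. The share of listed stops in the 3′ UTR was higher in unstressed cells, and also in starved cells, than in vitro in K+ in all 10 mRNAs, with ranges of 32.4% to 82.2% in vitro in K+, 35.8% to 92.9% in unstressed and 41.5% to 89.3% in starved cells. The libraries without DMS had ranges of 34.0% to 84.6% in the K+-labelled and 33.3% to 83.3% in the Na+-labelled library, and were also above in vitro K+ in 10 and 8 of the 10 mRNAs. In SRSF9 the share in unstressed cells, 54.85%, was not above that in the K+-labelled library, 54.91%. The 5′ UTR share in vitro in K+, in unstressed and in starved cells had medians of 4.04%, 1.25% and 0.705%. A shift to the 3′ side was also present in all transcripts, in which the stretch downstream of the midpoint of the covered length held a median of 59.6% of listed stops in vitro in K+, 75.2% in unstressed and 74.3% in starved cells. On this measure the medians of the SR mRNAs, without SRSF10, were 51.6%, 71.6% and 66.8%.

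SRSF11 had the largest shift in unstressed cells. Its coding sequence held 35.3% of the listed stops in vitro in K+, 9.14% in unstressed cells and 25.5% in starved cells. SRSF11 averaged 2.55, 1.28 and 3.28 stops per nucleotide in these libraries, and the part of this depth was not tested. In SRSF9 and SRSF2 the coding share was instead lower in starved cells, at 32.6% and 10.1%, than in unstressed cells, at 44.5% and 14.9%. SRSF7 had the smallest shift in unstressed cells, with a coding share of 59.5% in vitro in K+, 57.6% in unstressed and 53.6% in starved cells.

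**Figure D4:**
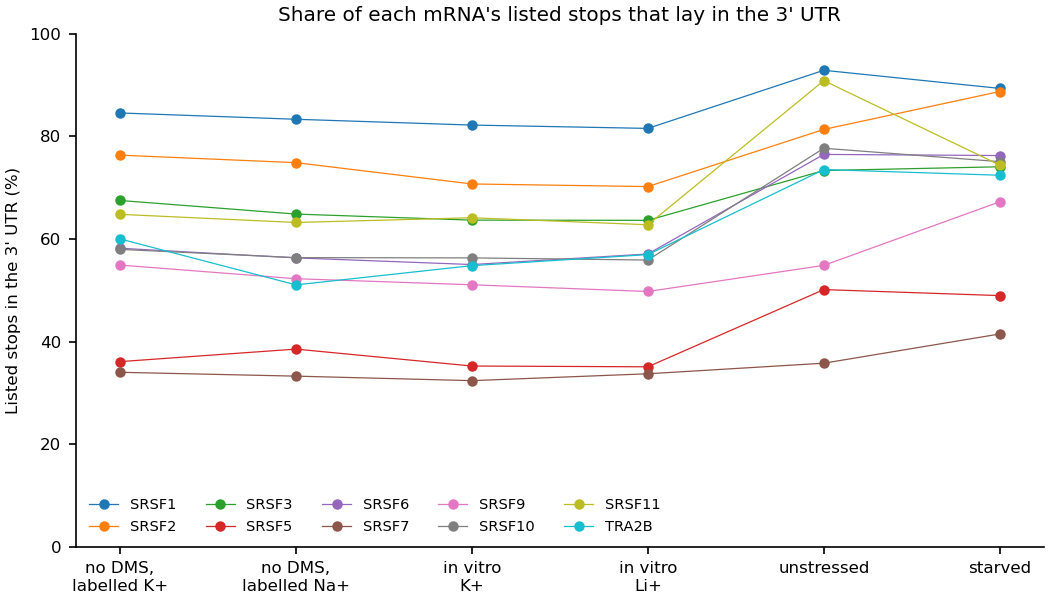
Percent of the listed stops of each mRNA that lay in its 3′ UTR (vertical axis) in the 6 libraries (horizontal axis), with lines joining the points of 1 mRNA. All 10 mRNAs are higher in unstressed and starved cells than in vitro in K+, and SRSF11 rises to 90.9% in unstressed cells and lies at 74.4% in starved cells.

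Within the coding sequence, stops at A and C per A or C nucleotide were compared between the RS stretch and the rest. The ratio of the RS stretch to the rest had a median of 0.891 for RNA refolded in K+ and 0.841 for Li+, where it was above 1 in 3 of the 10 mRNAs each. Its median was 1.04 in unstressed cells (above 1 in 5) and 1.15 in starved cells (above 1 in 7). The libraries without DMS, at 1.02 in K+ and 1.09 in Na+ by their labels (above 1 in 6 each), were near the values in cells. SRSF2, SRSF6 and SRSF9 had ratios above 1 in all 6 libraries, up to 3.41 in SRSF2 in starved cells. SRSF11 and TRA2B had ratios under 1 in all 6. In most of these mRNAs the RS stretch is at the 3′ end of the coding sequence, so position in the mRNA moved with it, and its part in the result was not tested.

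In 4 mRNAs the stops thinned out well before the last nucleotide of the transcript. Over all libraries 95% of listed stops lay before position 2803 of 5434 in SRSF1, 1461 of 3143 in SRSF3, 1147 of 2450 in SRSF7 and 1941 of 4286 in TRA2B. In the other 6 mRNAs this point lay between position 1104 of 1162 in SRSF9 and 3372 of 3744 in SRSF6. The mean over a whole transcript is therefore low, and E high, for these 4 mRNAs. With the mean taken only up to the point that holds 95% of listed stops, the number of regions was again 6, while strong G went from 15 to 12 in the Na+-labelled library and from 1 to 0 in the K+-labelled library.

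The share of each mRNA among all stops was compared between unstressed and starved cells. A share rises where other RNAs fall, so less of 1 mRNA and more of all others cannot be told apart. In total 1 of the 10 was at least 1.5-fold higher in starved cells, against 22.4% of the 4514 transcripts compared, and 2 were at least 1.5-fold lower, against 39.2%. The median log2 ratio was 0.15, against -0.24 over all transcripts. The number higher depended on the scaling, with 5 of the 10 under TMM (33.2% of all transcripts) and 4 under median-of-ratios (32.1%). The number lower was 2 under both (29.0% and 29.9%). In vitro, none of the 10 differed by 1.5-fold between K+ and Li+, where 0.185% of 7040 transcripts were higher and 0.0284% lower, and the log2 ratios were between -0.05 and 0.01.

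SRSF9 and SRSF2 had lower shares in starved cells. Shares are given in ppm, the stops of an mRNA per 1000000 stops of the library. SRSF9 took 396 ppm in unstressed and 163 in starved cells, a ratio of 0.410 (0.395 to 0.425), and between 268 and 270.4 in the libraries without DMS and in vitro. SRSF2 took 598 and 294 ppm, a ratio of 0.492 (0.478 to 0.506), and between 530.3 and 564 in the other libraries. In both SRSF9 and SRSF2 the unstressed library was thus above, and the starved library below, the other 4.

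SRSF11 had the highest ratio, from 194.7 ppm in unstressed to 307 in starved cells, a ratio of 1.57 (1.51 to 1.64). The other 4 libraries had between 231 and 244. SRSF5 took 241 and 355 ppm, with a ratio of 1.47 (1.42 to 1.53), SRSF10 132 and 183, with 1.38 (1.32 to 1.45), SRSF7 272 and 352, with 1.30 (1.25 to 1.34), and SRSF3 699 and 849, with 1.22 (1.19 to 1.24). TRA2B had 405 and 303 ppm, with a ratio of 0.748 (0.726 to 0.772), and SRSF6 331 and 244, with 0.736 (0.711 to 0.762). SRSF1 had 744 and 759, with a ratio of 1.02 (0.999 to 1.04).

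GC content moved with these ratios. Across the 4514 transcripts, Spearman's rho between GC content and the log2 ratio of starved to unstressed cells was -0.768, as a description over transcripts that share the same pair of libraries. The transcripts in the lowest decile of GC content had a median log2 ratio of 0.78 and those in the highest decile -1.50. The GC content of the 10 mRNAs was between 38.9% in SRSF3 and 52.2% in SRSF9, and the 2 that were lower, SRSF2 and SRSF9, had the highest.

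Set against transcripts of the same decile of GC content, none of the 10 was 1.5-fold higher (19.2% of all transcripts) and 3 were 1.5-fold lower (16.6%). The 3 were SRSF6, with a log2 difference of -1.06, TRA2B, with -0.82, and SRSF2, with -0.62. SRSF1, SRSF3, SRSF7 and SRSF10, whose own ratios were above 1, lay at -0.58, -0.33, -0.02 and -0.15. SRSF5 and SRSF11 stayed positive, at 0.39 and 0.26, and SRSF9 lay at -0.48.

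**Figure D5:**
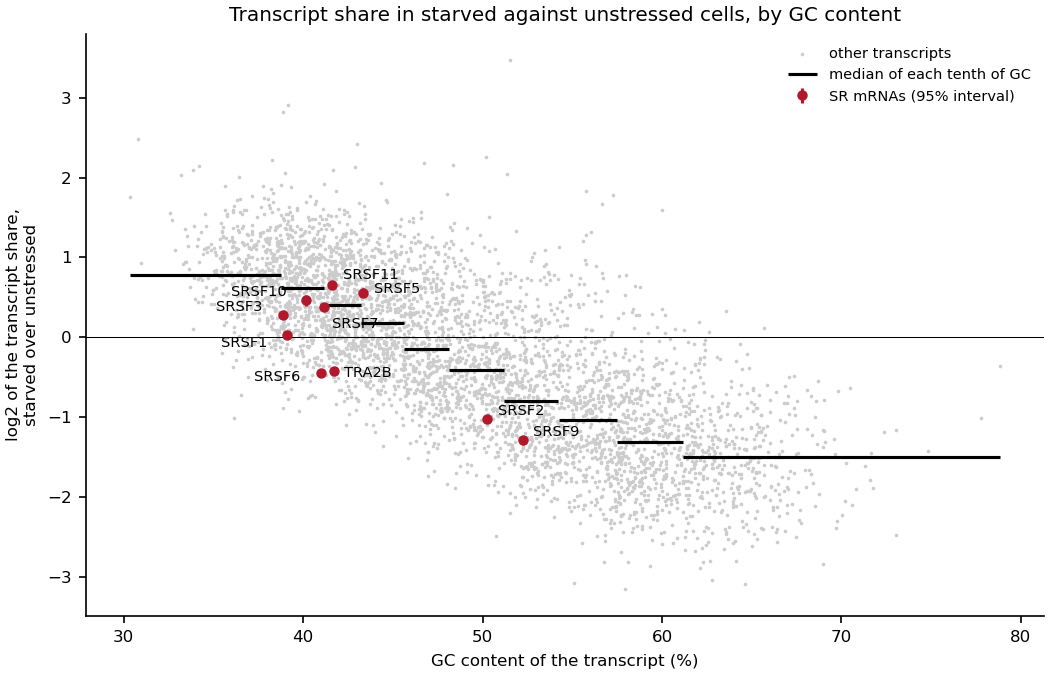
Log2 ratio of transcript share in starved to unstressed cells (vertical axis) against GC content (horizontal axis) for 4514 transcripts (grey), with the 10 SR mRNAs in red with 95% intervals and the median of each decile of GC content as black bars. SRSF2 and SRSF9 lie lowest among the 10, and SRSF6 and TRA2B lie under the grey cloud's median at their GC content.

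Other genes of the SR pathway were examined from a list of 30, of which 28 were matched and 20 passed the in vivo minimum. By share 6 of the 20 were at least 1.5-fold higher in starved cells (22.4% of all transcripts) and 8 at least 1.5-fold lower (39.2%), with a median log2 ratio of -0.53 against -0.24 over all transcripts. CLK1, a kinase that phosphorylates RS domains, had the highest ratio, from 45.7 to 191 ppm (log2 ratio of 2.06, and 1.45 against its decile of GC content). LUC7L3, a U1-associated protein, went from 193 to 562 ppm (1.54 and 0.93). U2AF2, the large U2AF subunit that binds the polypyrimidine tract, went from 378 to 81.9 ppm (-2.21 and -0.90), and RNPS1, a component of the exon junction complex, from 286 to 68.7 (-2.06 and -1.03). SRPK1, the cytoplasmic RS domain kinase, had 134 and 170.2 ppm (0.35 and -0.05). Against the same decile of GC content 3 were higher and 2 lower (19.2% and 16.6% of all transcripts). Without DMS, 10 of the 21 with enough stops had a region stronger in the Na+-labelled library (37.6% of all transcripts), among them TRA2A, the paralogue of TRA2B, with 1 region.

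The mRNAs outside the family with the most similar pattern of shares over the 6 libraries were C6orf62, VDAC2 and TMED2. Their root mean square distance from the family's median pattern was 0.0139, 0.0157 and 0.0215 on the log2 scale, and they are the smallest among 1359 transcripts by construction. The members themselves, which were not picked by distance, had a median of 0.168, and the selection does not allow these values to be compared. This median pattern left out SRSF10, which was under 1 stop per nucleotide in unstressed cells.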

How the data were processed

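Per the methods and the submitters' processing notes, the authors removed duplicate reads with SAMtools, mapped reads with Bowtie to an hg19 transcriptome at unique positions without mismatch, and deposited stop counts for nucleotides with at least 3 stops. The deposited ratio divides a count by a mean, in the files that of nucleotides with the same base. The methods name K+ or Li+ for RT in general, while the labels and the study's own comparison of RT without DMS name K+ and Na+. Base means times base composition gave each transcript's total and mean. A base with no listed nucleotide was given the library's usual ratio to the other bases, at most 2 stops, which among the members touched only SRSF10 in unstressed cells. Unlisted nucleotides counted as 0, and 1 count was added for log2 ratios at single nucleotides.

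Sequences came from GENCODE transcripts on GRCh37, found through the listed bases: 10404 of 11031 transcripts with 15 or more of these (94.3%) reached 95% identity and 80% coverage. The lengths of SRSF1, SRSF2 and SRSF7 were taken from their last listed nucleotide. GENCODE names 11 pseudogenes of 6 members, and reads from such copies were not told apart here. Share ratios needed a mean of at least 0.25 in both libraries.

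The members and gene lists were chosen with earlier results of these data known. The sequence and site values of 1 region are not reported here. Named were, in each member, the 2 strongest G stops with an E of at least 10 without DMS, and over all members the 5 G with the largest and the 3 with the smallest in vivo ratio among those with at least 20 in vivo stops, each member's strongest A or C in vivo, and the 3 other genes nearest in share pattern. Genes of the pathway list, further G of the TRA2B and SRSF5 regions, A stops without DMS, and G446 of SRSF9 and G527 of SRSF3 were named after their values were seen. Intervals of counts and ratios are exact binomial or Poisson. The calculation was tested on simulated data. Python 3.11.15, pandas 2.3.3, scipy 1.17.1, matplotlib 3.10.9 and edgeR 4.0.16 (TMM factors only, in R 4.3.3) were used.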

Additional observations from a re-analysis of the deposited data

How the results depend on the processing

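No paired analysis was possible because each condition had 1 library. The 6 regions stronger in the library labelled Na+ were 15 with an E of at least 5, and the 0 stronger in the library labelled K+ were 7, while members' strong G were 133 and 134. At an E of at least 20 strong G numbered 9 and 0. With the deposited ratio there were 4 strong G and 3 regions in the library labelled K+, and with the mean over the covered part or up to the point that holds 95% of listed stops (both chosen after seeing the data) 0 strong G there. After exchanging the labels of the libraries without DMS, K+-dependent regions went from 0 to 6. The median log2 ratio of K+ to Li+ at these regions went from 0.03 to -0.025 with the deposited ratio. The starved over unstressed median of 1.05 went to 0.42 with the mean over U and G and to 0.43 with the deposited ratio. The A/C difference was -20.1 when divided by the A and C share of the sequence. Members higher in starved cells were 5 with TMM, 4 with median-of-ratios, 2 with G and U stops, 2 with listed counts and 0 against the same decile of GC content (chosen after seeing the data), with medians of 0.46, 0.44, 0.26, 0.035 and -0.41. TMM moved every log2 ratio by 0.31 and median-of-ratios by 0.28. The median log2 share ratio in vitro went from -0.0092 to 0.046 with listed counts. The causes were not tested. In total 46 values of these comparisons stayed within counting error or within 1.5 times, while 21 moved and 3 reversed. The starved over unstressed medians of 0.42 and 0.43 count among the 46. Relative to U and G, however, every interval at the regions listed in both in vivo libraries included 1. Between 3 and 40 stops lay behind each value of the regions listed in cells.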
